A study of Mus musculus with 8 samples.

Results

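Gasdermins and inflammasome genes were examined in mouse wound skin. The 10 genes were chosen by symbol as the epidermal and hair gasdermins and the main parts of the inflammasome, and all 10 were found among the 18540 genes of the deposited table. They are the gasdermins Gsdma, Gsdma2, Gsdma3, Gsdmd and Gsdme, the sensors Nlrp3 and Aim2, the adaptor Pycard, and the inflammatory caspases Casp1 and Casp4. RNA was sequenced from 4 control samples, titled con1, con2, con3 and con5, and 4 samples titled shiyan1, shiyan2, shiyan4 and shiyan5. The titles do not name the treatment. The shiyan numbers match those of the Z1C2Z samples in the study's heat map, and the group is called the Z1C2Z group here. Z1C2Z is the ZCZ nano-composite, ZnO2/CeO2@ZIF-8, in its version with more CeO2. Wound tissue was taken after 15 days of treatment. In the wound experiments 100 μg/kg was injected around full-thickness wounds on the back, and control animals received PBS. The study used diabetic db/db and normal C57BL mice and does not state which of them were sequenced or their age at sampling. Each mouse carried a pair of wounds, and no record ties samples to mice. The p-values therefore measure the spread between these samples, which may in part be technical. Within groups, library pairs were compared by a chi-square per degree of freedom, lower where libraries are more alike. It was 20.99 for shiyan2 and shiyan4, 26.85 for shiyan1 and shiyan5 and 34.48 for con2 and con3. The other pairs had 71.67 to 133.29. Whether the closer pairs share a mouse was not tested. The tests treat all samples as independent, so the p-values may be too small if they do.

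An inflammasome is a complex that a cell assembles when a sensor such as NLRP3 or AIM2 detects danger. The adaptor ASC, encoded by Pycard, links the sensor to caspase-1, which matures interleukin-1β and interleukin-18 and cuts gasdermin D. The freed end of gasdermin D opens pores in the cell membrane, and the cell may die by pyroptosis. In mice caspase-11, encoded by Casp4, cuts gasdermin D directly after binding bacterial lipopolysaccharide. The gasdermin A genes are active in the epidermis and the hair follicle, and mutant forms of Gsdma3 cause hair loss in mice.

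The gasdermin A genes are near copies that lie side by side, and their coding sequences are shown because reads from copies can be hard to tell apart. In GRCm38 with the GENCODE M21 annotation they occupy the plus strand of chromosome 11, Gsdma3 at chr11:98626360-98638226, Gsdma2 at chr11:98646759-98657964 and Gsdma at chr11:98664351-98677708. Below are the first 90 coding bases of each, from the GENCODE transcripts, 5′ to 3′, with bases unlike Gsdma in capitals.
Gsdma: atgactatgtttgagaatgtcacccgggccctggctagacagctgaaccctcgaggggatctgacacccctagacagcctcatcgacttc
Gsdma2: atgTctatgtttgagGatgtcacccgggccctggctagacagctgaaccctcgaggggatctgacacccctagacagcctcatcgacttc
Gsdma3: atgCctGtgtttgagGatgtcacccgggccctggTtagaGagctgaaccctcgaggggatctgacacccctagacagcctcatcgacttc
Over this stretch Gsdma2 differs from Gsdma at 2 bases and Gsdma3 at 5. Over the whole coding sequence, identity was 89.4% for Gsdma and Gsdma2, 84.5% for Gsdma and Gsdma3 and 84.9% for Gsdma2 and Gsdma3. Of the 100-base stretches in the exons of Gsdma, 1.83% occurred without a mismatch in Gsdma2, and 1.45% of those of Gsdma2 occurred in Gsdma. None of the other 8 genes shared such a stretch with another gene. Counts of Gsdma and Gsdma2 are therefore uncertain to the extent that the authors' counting split shared reads. Genes on the opposite strand overlap Gsdme, Aim2 and Pycard in the annotation, and the strand setting of the counting is not given in the sources used here, so that reads of the overlapping genes would be mixed in if it ignored strand.

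Gasdermin D is opened by caspase-1 and caspase-11, the products of Casp1 and Casp4, and the coding bases at its cleavage site are shown because they join these members. The window has 30 bases, and the capitals mark the 4 codons that end at the cut.
Gsdmd, coding bases 808 to 837: cagctcagtCTCCTGTCAGATgggattgat
The last marked codon encodes aspartate, after which caspases cut.

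Each sample had 28856790 to 38974888 counts in all. The libraries shiyan2 and shiyan4 stood apart in their hair follicle markers, with summed levels of 15172 and 14593 CPM against 9021 and 4419 CPM in shiyan1 and shiyan5. The control libraries also split, with 2337 and 3613 CPM in con2 and con3 against 649 and 594 CPM in con1 and con5. Results that rest on these libraries are also given without shiyan2 and shiyan4 and without con1 and con5. The pair con1 and con5 had been chosen for high Il6 in an earlier analysis, so leaving it out is not a neutral check. Of 15147 genes that passed edgeR's low-count filter, all 10 members were retained. Levels are CPM, counts scaled to a common library size by the TMM method, and differences were tested by the quasi-likelihood method of edgeR, with p adjusted by Benjamini-Hochberg over all genes tested. A log2 fold change is that of the Z1C2Z group over the control group. A gene was called at an adjusted p under 0.05 and a log2 fold change over 1 or under -1. Over all genes 2.15% were called higher in the Z1C2Z group and 1.25% were called lower. Of the 10 members 0 were called higher and 1, Casp4, was called lower. At an adjusted p under 0.05 with no fold threshold, 2 members rose (Gsdma3 and Pycard) and 1 fell (Casp4), where the shares of all genes were 4.28% higher and 3.85% lower. The samples of the groups did not overlap for 2 members that were higher and for 2 that were lower (Casp4 and Nlrp3), against 8.45% and 8.82% of all genes. In this edgeR fit no gene of the table had an adjusted p below 0.0232.

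**Figure D1:**
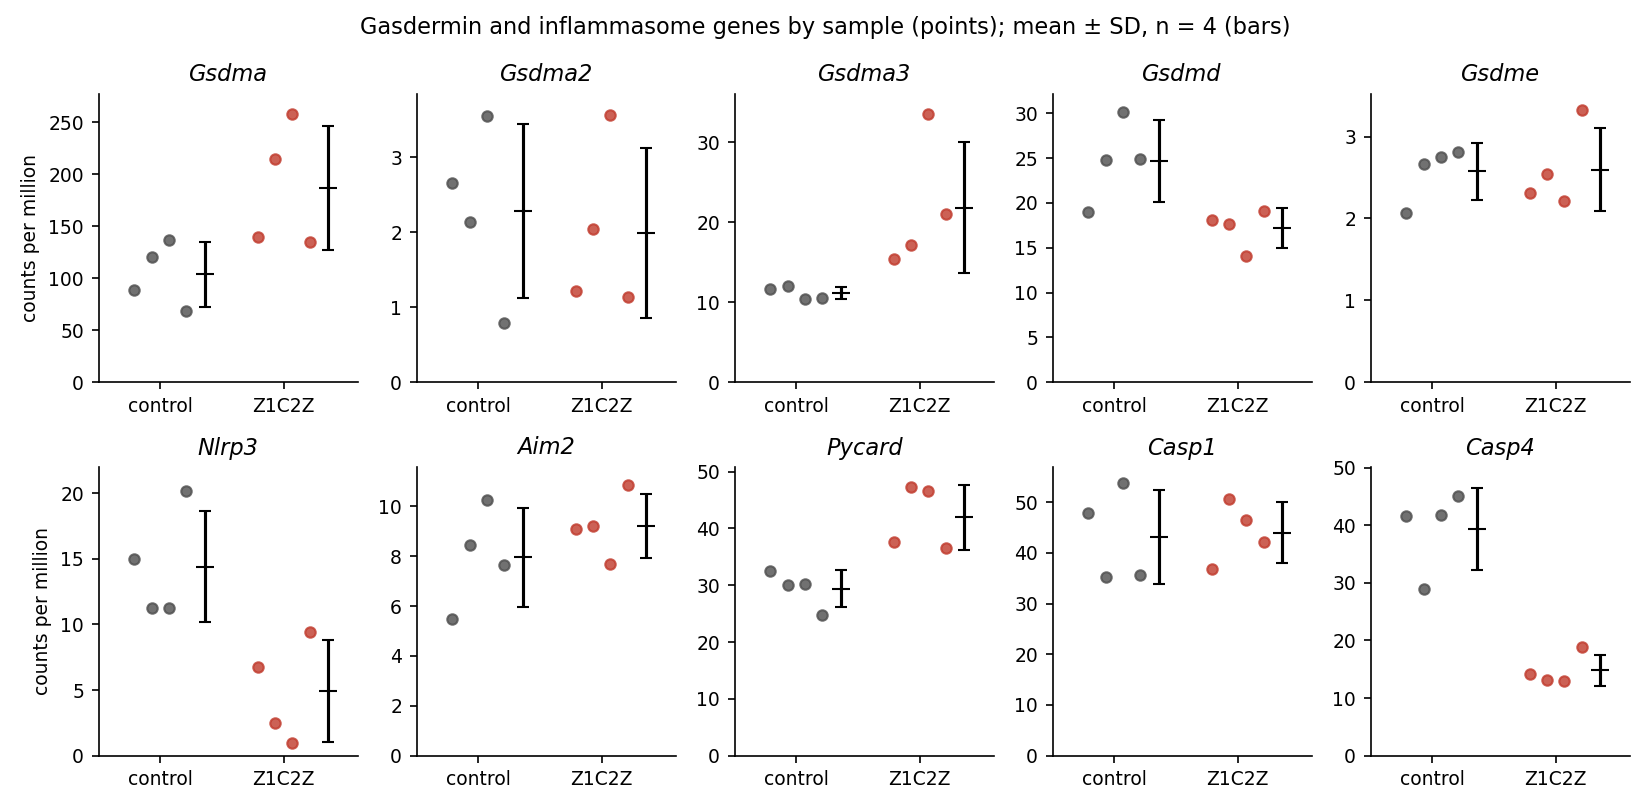
Levels of the 10 genes in CPM, 1 panel per gene with its own axis from 0. Points are samples in the order con1, con2, con3, con5 and shiyan1, shiyan2, shiyan4, shiyan5, and bars give the mean and SD of 4 samples. The groups are apart for Gsdma3, Nlrp3, Pycard and Casp4.

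Casp4 (Entrez 12363) fell in the Z1C2Z group to 0.376 of its control level. It had 41.7, 28.9, 41.7 and 45.0 CPM in con1, con2, con3 and con5, and 14.2, 13.1, 12.9 and 18.9 CPM in shiyan1, shiyan2, shiyan4 and shiyan5. The highest Z1C2Z sample lay well under the lowest control sample. The group means were 39.3 ± 7.11 and 14.8 ± 2.77 CPM (SD, n = 4 each). The fall was -1.41 on the log2 scale (SE 0.17, 95% interval -1.80 to -1.03, adjusted p = 0.0232 by edgeR). By unadjusted p it ranked 10 of all 15147 genes. Exact two-sided permutation over the 70 arrangements of the samples gave p = 0.0286, the smallest this design allows. Over 16 alternative settings its log2 fold change lay between -1.55 and -1.25. Its adjusted p was under 0.05 in 10 of them. It was 3.9e-11 with DESeq2 and 0.00991 by edgeR without shiyan5. Without shiyan2 and shiyan4 together the log2 fold change was -1.25 with an adjusted p of 0.280, and without con1 and con5 together it was -1.26 with an adjusted p of 0.0686. The adjusted p was 0.0638 without con5, 0.0661 without shiyan1, 0.0888 without shiyan2 and 0.0876 without shiyan4. In these 4 fits no gene of the whole table had an adjusted p under 0.05, with 3223, 4208, 3137 and 3100 genes at an unadjusted p under 0.05.

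Casp1 (Entrez 12362), whose product is the caspase of the canonical inflammasome, is the neighbour of Casp4 on the genome and had nearly the same mean in both groups. In GRCm38 Casp1 lies at chr9:5298517-5307265 and Casp4 at chr9:5308828-5336783, both on the plus strand, with 55.2% identity between their coding sequences. Casp1 had 47.9, 35.2, 53.7 and 35.5 CPM in the control samples and 36.7, 50.7, 46.5 and 42.1 CPM in the Z1C2Z samples. The groups overlapped throughout. Their difference was 0.03 on the log2 scale (95% interval -0.34 to 0.40, adjusted p = 0.922 by edgeR), so a change of the size seen in Casp4 lay outside its interval. The 95% intervals of the 2 genes did not overlap. As a description, with the pair chosen after their values were seen, the ratio of Casp4 to Casp1 counts was between 0.777 and 1.27 in the control samples. In the Z1C2Z samples it was between 0.259 and 0.448, with each sample under every control sample.

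The bases before the Casp4 and Casp1 start sites are shown because Casp4 was called and its neighbour was not. Both are RefSeq windows of GRCm38.p6 on the plus strand, 250 bases up to the base before the RefSeq start, and capitals mark matches to the kappa B consensus, the site of NF-κB. The GENCODE span of Casp4 begins at 5308828, inside its window, and distances below are from the RefSeq start.
Casp4, chr9:5308599-5308848: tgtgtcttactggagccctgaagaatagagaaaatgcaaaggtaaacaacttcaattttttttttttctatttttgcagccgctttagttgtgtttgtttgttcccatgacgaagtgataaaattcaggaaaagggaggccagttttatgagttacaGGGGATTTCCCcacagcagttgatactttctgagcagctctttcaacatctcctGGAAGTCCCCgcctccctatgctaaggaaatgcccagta
Casp1, chr9:5298267-5298516: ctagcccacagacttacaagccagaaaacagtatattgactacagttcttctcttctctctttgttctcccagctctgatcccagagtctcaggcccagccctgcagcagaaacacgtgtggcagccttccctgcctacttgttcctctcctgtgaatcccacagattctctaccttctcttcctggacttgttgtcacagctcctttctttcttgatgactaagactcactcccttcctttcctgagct
The Casp4 window held 3 matches on both strands together, a pair that overlap at -93 and -92 and another at -39 from the start, and the Casp1 window held 0. A second Casp4 start is listed 11 bases further on and has the same matches. Windows were also searched for the interferon element GAAANNGAAA, the STAT element TTCNNNGAA and the AP-1 element TGANTCA, on both strands. Of all 32851 mouse windows of this length, 7.25% held a kappa B match, 2.98% the interferon element, 7.02% the STAT element and 6.75% the AP-1 element. Windows were found for 7 of the 10 members, and Gsdma, Gsdma2 and Gsdmd had none. One of the start windows of Nlrp3 held 1 kappa B match, and the Gsdma3 window held 1 kappa B match and 1 interferon element. The windows of Aim2, Gsdme and Pycard held no match. A match is a run of letters and was not tested as a binding site, and a part of these matches in any difference was not tested.

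Nlrp3 (Entrez 216799), a sensor that responds to potassium loss and membrane damage, had lower values in every Z1C2Z sample and did not pass the adjusted test. It had 14.96, 11.3, 11.2 and 20.2 CPM in the control samples and 6.74, 2.51, 0.929 and 9.43 CPM in the Z1C2Z samples. The Z1C2Z samples spread widely among themselves, with shiyan2 and shiyan4 the lowest. The means were 14.4 ± 4.23 and 4.90 ± 3.89 CPM (SD, n = 4 each), and the difference was -1.56 on the log2 scale (SE 0.58, adjusted p = 0.119 by edgeR, exact permutation p = 0.0286). Nlrp3 thus had the largest fold change among the 10 members and, with it, the largest standard error. Without shiyan2 and shiyan4 together its log2 fold change was -0.83, and without con1 and con5 together it was -1.21.

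Aim2 (Entrez 383619), the sensor of DNA in the cytoplasm, had overlapping values. It lay between 5.47 and 10.3 CPM in the control samples and between 7.71 and 10.9 CPM in the Z1C2Z samples. It differed by 0.21 on the log2 scale (95% interval -0.23 to 0.65, adjusted p = 0.516 by edgeR).

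Pycard (Entrez 66824), the adaptor that both sensors share, rose. It had 32.6, 30.03, 30.2 and 24.8 CPM in the control samples and 37.6, 47.2, 46.6 and 36.5 CPM in the Z1C2Z samples. Every Z1C2Z sample lay above every control sample, with shiyan2 and shiyan4 the highest. The means were 29.4 ± 3.26 and 42.0 ± 5.72 CPM (SD, n = 4 each). The log2 fold change was 0.51 (SE 0.12, adjusted p = 0.0411 by edgeR, exact permutation p = 0.0286). Its adjusted p was under 0.05 in 7 of 16 alternative settings. Leaving out con2, con3, con5, shiyan1, shiyan2 or shiyan4 raised it to between 0.0617 and 0.121. Without shiyan2 and shiyan4 together the log2 fold change was 0.33 with an adjusted p of 0.361, and without con1 and con5 together it was 0.47 with an adjusted p of 0.123. There were 1.23 to 2.69 Pycard counts per Nlrp3 count in the control samples and 3.87 to 50.2 in the Z1C2Z samples, again a description of a pair chosen after the values were seen.

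**Figure D2:**
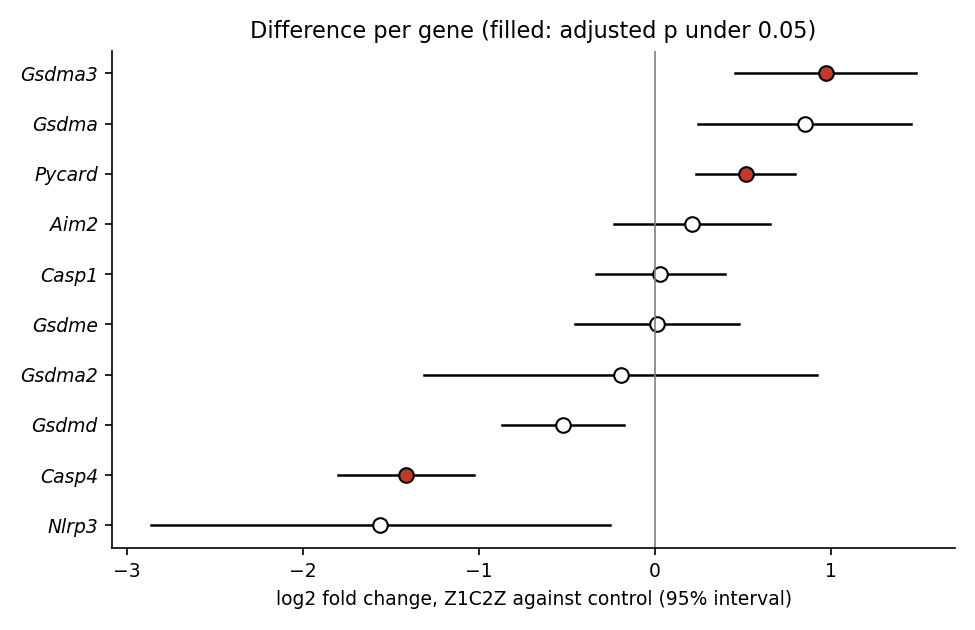
Log2 fold change of each of the 10 genes, Z1C2Z against control, with its 95% interval from edgeR's quasi-likelihood fit. Filled points have an adjusted p under 0.05. Casp4 lies at -1.41 with its interval under -1, Gsdma3 and Pycard are the filled points above 0, and Nlrp3 has the widest interval.

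Among the gasdermins, Gsdma3 rose, Gsdma was higher and Gsdmd lower without passing the adjusted test, and the intervals of Gsdma2 and Gsdme spanned 0. Gsdma3 (Entrez 450219) had 11.6, 12.0, 10.4 and 10.6 CPM in the control samples and 15.4, 17.1, 33.5 and 21.1 CPM in the Z1C2Z samples. The control samples were nearly alike, whereas shiyan4 stood above the other Z1C2Z samples. The means were 11.1 ± 0.785 and 21.8 ± 8.18 CPM (SD, n = 4 each). The rise was 0.97 on the log2 scale (SE 0.23, adjusted p = 0.0394 by edgeR, exact permutation p = 0.0286), just under the fold threshold of a call. Its adjusted p was under 0.05 in 6 of 16 alternatives and in 1 of the 8 fits that left out 1 sample, 0.0445 without shiyan5. The other 7 fits gave 0.0534 to 0.108. Without shiyan2 and shiyan4 together the log2 fold change was 0.71 with an adjusted p of 0.280, and without con1 and con5 together it was 0.96 with an adjusted p of 0.144.

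Gsdma (Entrez 57911), with the highest mean CPM of the 10 in both groups, had 88.6, 121, 137 and 68.1 CPM in the control samples. In the Z1C2Z samples it had 140, 214, 258 and 135 CPM. Only con3 reached the range of the Z1C2Z samples, just above shiyan5. The log2 fold change was 0.85 (SE 0.27, adjusted p = 0.0804 by edgeR, exact permutation p = 0.0571). DESeq2, used as an alternative, gave an adjusted p of 0.0135, and without shiyan2 and shiyan4 together the log2 fold change was 0.41 with an adjusted p of 0.540 by edgeR. Without con1 and con5 together it was 0.53 with an adjusted p of 0.287.

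Gsdma2 (Entrez 76758) was the least abundant of the gasdermin A genes, with 0.789 to 3.55 CPM in the control samples and 1.14 to 3.57 CPM in the Z1C2Z samples. The highest value of each group came from con3 and shiyan4, and the ranges overlapped widely. Its fold change was -0.20 on the log2 scale (95% interval -1.31 to 0.92, adjusted p = 0.824 by edgeR), an interval that holds the 0.85 of Gsdma and ends just below the 0.97 of Gsdma3. Whether it differed from them was not tested.

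Gsdmd (Entrez 69146), the pore protein of the inflammasome, had 19.0, 24.8, 30.2 and 24.8 CPM in the control samples and 18.0, 17.7, 14.0 and 19.1 CPM in the Z1C2Z samples. Only con1 fell within the Z1C2Z range. The log2 fold change was -0.52 (SE 0.15, adjusted p = 0.0672 by edgeR, exact permutation p = 0.0571). DESeq2 gave an adjusted p of 0.0173, and the fit without con1 gave 0.0353. As a description, with the pair chosen after the values were seen, there were 0.343 to 0.611 Gsdma3 counts per Gsdmd count in the control samples and 0.855 to 2.39 in the Z1C2Z samples.

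Gsdme (Entrez 54722), another pore-forming gasdermin, lay between 2.06 and 2.82 CPM in the control samples and between 2.21 and 3.33 CPM in the Z1C2Z samples, and differed by 0.01 on the log2 scale (95% interval -0.45 to 0.48, adjusted p = 0.978 by edgeR).

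Per kilobase of the longest protein-coding transcript in GENCODE M21, the order of the levels also shifted. In the control samples it was Gsdma at 38.01 ± 11.4 RPKM (SD, n = 4), Casp1 at 28.8 ± 6.18, Casp4 at 27.4 ± 4.96, Gsdmd at 13.8 ± 2.54, Pycard at 7.74 ± 0.859, Gsdma3 at 7.01 ± 0.495, Nlrp3 at 3.58 ± 1.05, Aim2 at 2.80 ± 0.700, Gsdma2 at 1.37 ± 0.691 and Gsdme at 0.587 ± 0.0794. Neighbours in this order overlapped in their sample ranges, except that Casp4 lay above Gsdmd, Gsdmd above Pycard and Gsdma3 above Nlrp3 in every control sample. In the Z1C2Z samples Gsdma stood at 68.5 ± 21.8 RPKM and Casp1 at 29.4 ± 4.01. Gsdma3 followed at 13.7 ± 5.15, Pycard at 11.1 ± 1.505 and Casp4 at 10.3 ± 1.93. Casp4, whose range overlapped that of Casp1 in the control samples, thus overlapped Pycard in the Z1C2Z samples. The order depends on the transcript taken, since the isoforms used in this tissue are unknown. For Pycard the transcript taken has 3800 bases, nearly the whole gene at chr7:127989708-127993867. A shorter transcript would place Pycard higher. Its places under Gsdma and Gsdmd and its overlap with Casp4 therefore rest on that length.

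The samples also differed in their cell type markers, and fewer cells of a type cannot be told apart from less RNA per cell in bulk tissue. Epidermal markers marked the tissue as skin, with 13038 to 20459 summed CPM of 10 genes over all samples. Of these, 9 had a higher fitted level in the Z1C2Z group, and 1, Krt2, was called. All 11 hair follicle markers had a higher fitted level in the Z1C2Z group, 10 of them called, with summed levels of 594 to 3613 CPM in the control samples and 4419 to 15172 CPM in the Z1C2Z samples. All 10 macrophage and monocyte markers had a lower fitted level in the Z1C2Z group (2550 to 3136 and 1563 to 2590 CPM). The same held for the 7 neutrophil markers that passed the filter (696 to 1614 and 187 to 784 CPM for the 8 listed) and for the 6 fibroblast markers (54834 to 78015 and 43054 to 60493 CPM). No macrophage or neutrophil marker had an adjusted p under 0.05 by edgeR, while 2 fibroblast markers did. The sums of these 3 lists overlapped between the groups. All 8 skeletal muscle markers also had a lower fitted level, 2 of them with an adjusted p under 0.05, and their sums did not overlap (3582 to 6530 and 2868 to 3420 CPM). The 6 endothelial markers had a lower fitted level with overlapping sums (316 to 840 and 276 to 522 CPM), and no adjusted p among them was under 0.05. The macrophage, hair follicle, epidermal, fibroblast, muscle and endothelial markers were above 0 in every sample, and the neutrophil marker Ly6g had 0 to 6 counts per sample.

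Across the 8 samples, which share the group difference, the log2 levels of the members followed these sums to different degrees. Pearson's r was 0.983 for Nlrp3 and the macrophage sum, 0.945 for Gsdma and the hair follicle sum, and 0.942 for Gsdmd and the neutrophil sum. For Gsdmd it was also 0.930 with the fibroblast sum and 0.817 with the endothelial sum. For Casp4 it was 0.807 with the fibroblast sum, 0.801 with the macrophage sum, 0.799 with the neutrophil sum and 0.777 with the muscle sum. It was -0.904 for Casp4 and the hair follicle sum, and -0.933 for Pycard and the fibroblast sum. Levels per 1000 CPM of a marker sum are a description and do not measure cell number. The most abundant genes weigh most in a sum, such as Lyz2 in the macrophage sum (control mean 1246 CPM). Per macrophage sum, Casp4 was between 11.4 and 14.9 in the control samples and between 5.55 and 8.27 in the Z1C2Z samples, without overlap. Nlrp3 was between 3.89 and 6.44 and between 0.594 and 3.64, also without overlap. Per fibroblast sum, Casp4 was between 0.397 and 0.760 in the control samples and between 0.264 and 0.312 in the Z1C2Z samples, without overlap. Per neutrophil sum Nlrp3 overlapped, with 6.96 to 21.5 and 4.96 to 12.0. Per neutrophil sum Gsdmd was 16.4 to 27.3 in the control samples and 24.3 to 74.9 in the Z1C2Z samples, with overlap. Much of that sum came from S100a8 and S100a9, with control means of 378 and 628 CPM. Gsdmd was not scaled by the fibroblast sum. Per epidermal sum, Gsdma3 was higher in every Z1C2Z sample (0.709 to 0.905 and 0.945 to 1.64) and Pycard barely so (1.91 to 2.27 and 2.28 to 3.21), while Gsdma overlapped (5.23 to 9.38 and 8.48 to 14.5). Pycard had r = 0.867 with the hair follicle sum and 0.716 with the epidermal sum. It was not scaled by the hair follicle sum, so whether its rise would remain there is not known. Per hair follicle sum, Gsdma was lower in the Z1C2Z samples, with 37.9 to 136 and 14.1 to 30.6. Gsdma3 per hair follicle sum overlapped, with 2.87 to 17.9 in the control samples and 1.13 to 4.77 in the Z1C2Z samples. The part of cell makeup in each difference was not tested.

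**Figure D3:**
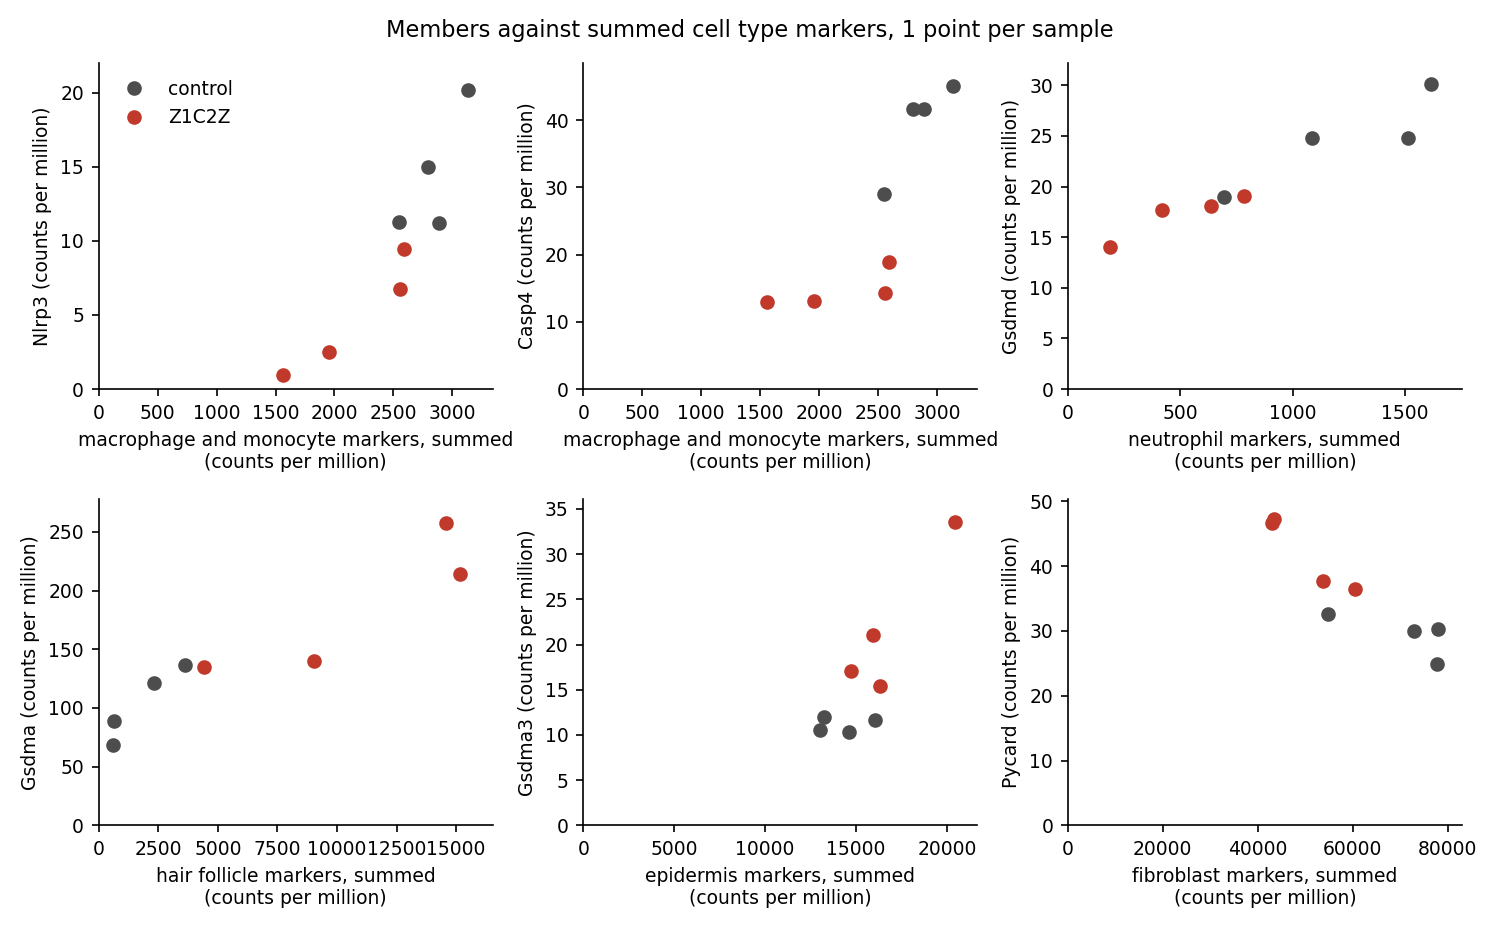
Level of a member against the summed level of a marker list, both in CPM and both axes from 0, with 1 point per sample and 4 samples per group. Nlrp3 is higher where the macrophage sum is higher. Both the Nlrp3 and the Casp4 values of shiyan1 and shiyan5 lie under those of con2, the control sample of a like macrophage sum. This match rests on con2 alone, was picked after the values were seen and was not tested.

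Genes whose levels followed a member most closely were listed by Pearson's r of log2 CPM over the 8 samples. For Casp4 they were Plscr1 (0.994), Htr7 (0.991) and Rnf31 (0.989), with log2 fold changes of -1.16, -1.46 and -0.42. For Nlrp3 they were Cfp (0.992), Raet1d (0.988) and Il1b (0.988). For Gsdmd they were Serpinb9 (0.988), Myo1g (0.986) and A630001G21Rik (0.982). Those of Gsdma3 were Mepce (0.993), Slc44a2 (0.964) and Cnnm3 (0.956), and those of Pycard were Taf1b (0.991), Efna4 (0.991) and Tfap2a (0.988). Gsdma was followed by Snx11 (0.983), Pik3r2 (0.980) and Cldn14 (0.979). Casp1 was followed by Capn9 (0.971), Snapin (0.930) and Psme2b (0.923), and Gsdma2 by Gm12248 (0.967), Crygn (0.932) and Spdya (0.924). Trim14 (0.940), Rgs14 (0.937) and Tulp3 (0.934) were the closest to Aim2, and Fam78a (0.915), Kcnn4 (0.908) and Ankrd42 (0.898) to Gsdme. Among the members themselves, Nlrp3 and Gsdma had r = -0.933, Pycard and Gsdma r = 0.906 and Pycard and Casp4 r = -0.900, whereas Casp4 and Casp1 had r = -0.05.

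The other genes of the pathway fell into 6 lists of 53 genes, of which 47 passed the filter. Of these 47, 0 rose and 3 fell at an adjusted p under 0.05, namely Sting1, Ripk3 and Myd88, beside 4.28% and 3.85% of all genes. Without con2, con5, shiyan1, shiyan2 or shiyan4 the count of such genes was 0, without con3 it was 1, and without con1 or shiyan5 it was 6 and 11. Over all genes, 656 were higher and 868 lower without con1, and 886 higher and 859 lower without shiyan5. The fitted fold change was under 0 for 41 of 47, with a median log2 fold change of -0.34, where the median of all genes was 0.0086. At an unadjusted p under 0.05, 1 was higher and 17 were lower, against 12.8% and 15.2% of all genes. The groups did not overlap for 8, all lower, among them Panx1, Sting1, Il1b, Ripk1, Myd88, Tlr4 and Tlr2, where 8.45% of all genes were higher and 8.82% lower without overlap. The 6 that did not pass the filter were Gsdmc3, Gsdmc4, Nlrp6, Naip1, Elane and Ctsg.

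**Figure D4:**
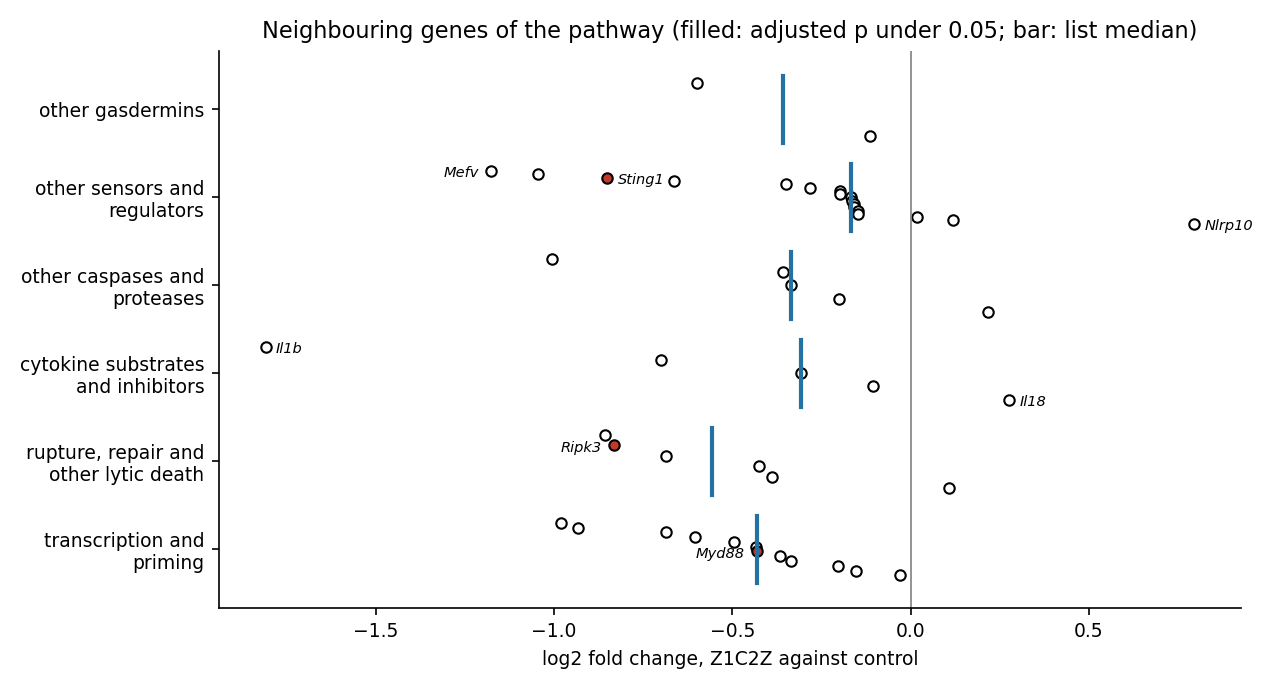
Log2 fold change of the 47 pathway genes that passed the filter, Z1C2Z against control, in 6 rows by role. Filled points have an adjusted p under 0.05 and bars give the list medians, which lie between -0.56 and -0.17, with Il1b the lowest point at -1.81 and Nlrp10 the highest at 0.79.

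Of the other sensors and their regulators, 17 of 19 passed the filter, with a median log2 fold change of -0.17. Sting1 (Entrez 72512), the adaptor of the cGAS pathway for cytoplasmic DNA, fell from 41.3 to 52.4 CPM in the control samples to 20.8 to 34.4 CPM in the Z1C2Z samples. Its log2 fold change was -0.85 (SE 0.17, adjusted p = 0.0303 by edgeR), and the groups did not overlap. Mefv, which encodes the sensor pyrin, had the largest fold change of the list, -1.18 (adjusted p = 0.0626 by edgeR). Nlrp10, a gene of the epidermis, had 20.6 to 47.9 and 42.2 to 74.6 CPM, a log2 fold change of 0.79 (adjusted p = 0.0940 by edgeR). Nek7 and Txnip, partners of NLRP3, had log2 fold changes of 0.02 and -0.17 (adjusted p by edgeR of 0.916 and 0.400).

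The cytokines that caspase-1 matures differed in their values. Il1b had 116, 75.3, 93.1 and 135 CPM in the control samples and 41.2, 9.30, 5.37 and 63.8 CPM in the Z1C2Z samples, the lowest again in shiyan2 and shiyan4 as for Nlrp3. Its log2 fold change of -1.81 did not pass the adjusted test (SE 0.67, adjusted p = 0.119 by edgeR). The study's text on its sequencing heat map describes IL1β and IL6 as elevated in the ZCZ group. Il1b here, and Il6 in the wider list below, went the other way. The study's protein assay of wounds gave lower IL1β and IL6 with ZCZ. Il18 had 33.7 to 64.9 CPM in the control samples and 43.5 to 69.98 CPM in the Z1C2Z samples, with a log2 fold change of 0.27 (95% interval -0.22 to 0.77, adjusted p = 0.441 by edgeR). Of the 5 genes of this list 0 passed the adjusted test in either direction.

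Of the genes for membrane rupture, repair and other lytic death, 5 of 6 had a fitted fold change under 0, with a median log2 fold change of -0.56. Ripk3 (Entrez 56532), the kinase of necroptosis, fell from 26.1 ± 6.11 to 14.6 ± 3.59 CPM (SD, n = 4 each). Its log2 fold change was -0.83 (SE 0.21, adjusted p = 0.0460 by edgeR), and con1 overlapped the Z1C2Z samples. Mlkl, the pore protein that the RIPK3 kinase activates, had a log2 fold change of -0.69 (adjusted p = 0.0524 by edgeR). Zbp1, a sensor upstream of the same kinase, had the largest fold change of the list at -0.86 (adjusted p = 0.117 by edgeR). Ninj1, whose product ruptures the dying cell, had -0.43 (adjusted p = 0.169 by edgeR).

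Among the priming and transcription genes, all 12 had a fitted fold change under 0. Myd88 (Entrez 17874), the adaptor of Toll-like receptors, fell from 53.7 ± 4.14 to 39.8 ± 4.75 CPM (SD, n = 4 each). The fall was -0.43 on the log2 scale (SE 0.10, adjusted p = 0.0419 by edgeR). Tlr2 had the largest fold change of the list, -0.98 (adjusted p = 0.0575 by edgeR). The guanylate-binding protein Gbp2 had 234 CPM in con3 and between 38.05 and 50.4 CPM in the other control samples. Con3 was likewise the highest control sample for Gbp3, Gbp5, Gbp7, Irgm1, Irgm2 and Irf1, which are interferon targets. No gene of this interferon group passed the adjusted test.

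Of the other caspases and proteases that cut gasdermins, 5 of 7 passed the filter and 0 passed the adjusted test. Gzmb, a protease of cytotoxic lymphocytes, had the largest fold change of the list, -1.01 (adjusted p = 0.110 by edgeR). The other gasdermins Gsdmc and Gsdmc2 had log2 fold changes of -0.11 and -0.60 (adjusted p by edgeR of 0.741 and 0.470).

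The authors' KEGG annotation gave a wider list, the NOD-like receptor signaling pathway, which was added after the data were seen. It held 155 genes, of which 152 passed the filter, 6 of them members. At an adjusted p under 0.05, 1 rose, Pycard, and 15 fell, beside 4.28% and 3.85% of all genes. Those that fell were Antxr1, Birc3, Casp4, Cxcl1, Defb14, Ifi204, Ifnar2, Il6, Mcu, Myd88, Nfkb1, Rela, Ripk3, Rnf31 and Sting1. Without con5, shiyan1, shiyan2 or shiyan4 no gene of the whole table had an adjusted p under 0.05 by edgeR. The median log2 fold change was -0.19, with 111 genes under 0 and 41 over 0.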

How the data were processed

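RNA from wound skin of 8 samples was sequenced. The labels name Trizol extraction, removal of ribosomal RNA, random priming and dUTP in the second strand, whereas the study's methods name the RNA Easy Fast kit. The table the authors deposited holds whole-number read counts per gene, not normalized, beside gene annotation. The aligner, counter, genome build, annotation and strand setting are not given in the sources used here, and how shared or antisense reads were assigned can change counts of Gsdma, Gsdma2, Gsdme, Aim2 and Pycard.

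Groups came from the sample titles. The test was run in edgeR 4.0.16 under R 4.3.3 (filterByExpr, TMM, quasi-likelihood test, Benjamini-Hochberg adjustment, no covariates). The test compared 4 samples with 4, at totals of 28856790 to 38974888 counts. Log2 CPM used a prior count of 2. Standard errors and 95% intervals came from the quasi-likelihood fit and cover the spread between samples. Single genes also had an exact two-sided permutation test over 70 arrangements. The steps were tested on simulated data. The table held 0 unused columns of per-sample values.

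All members are named, with pathway genes at an adjusted p under 0.05, Il1b, Il18, 1 further gene that is not reported here, the largest fold change of each list, and the 3 genes closest to each member. Other pathway genes (Nlrp10, Nek7, Txnip, Mlkl, Ninj1, the interferon targets, Gsdmc, the genes without overlap and those below the filter) and those of the KEGG list were named after their values were seen. The members, lists, tests and alternatives were chosen with earlier results of these data known. Transcript lengths and coding sequences came from GENCODE M21, promoter windows from RefSeq (GRCm38.p6). Alternatives were DESeq2 1.42.0, RLE size factors, CPM without TMM factors, filters, a replicate block and samples left out.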

Additional observations from a re-analysis of the deposited data

How the results depend on the processing

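Over 16 alternative settings, Casp4, Nlrp3, Gsdmd, Gsdma, Gsdma3 and Pycard kept their direction in every one. DESeq2 gave 5 members and 13 pathway genes at an adjusted p under 0.05, in place of 3 and 3. The whole table moved as well, with 1206 of 15147 genes higher and 1539 lower, in place of 648 and 583. CPM without TMM factors, which moved the median log2 fold change of all genes to 0.10, gave 1 member called higher (Gsdma3) and 1 pathway gene at an adjusted p under 0.05. Of all 15147 genes, 391 were called higher in that setting, and 972 rose and 385 fell at an adjusted p under 0.05. Leaving out 1 sample gave 0 to 1 members called lower, 0 to 3 members and 0 to 11 pathway genes at an adjusted p under 0.05, with 0 genes of the whole table in the fits without con5, shiyan1, shiyan2 or shiyan4. The 11 came without shiyan5, where 886 genes of the whole table were higher and 859 lower at that threshold. Without shiyan2 and shiyan4 together, 0 members were called lower, 0 members and 0 pathway genes had an adjusted p under 0.05, and edgeR left 1980 genes of the whole table at an unadjusted p under 0.05. Without con1 and con5, chosen for their high Il6 in an earlier analysis, the same counts were 0, 0 and 0, with 3755 genes at an unadjusted p under 0.05. Il6 is itself among the genes that fell in the Z1C2Z group, so this pair was picked on an outcome. Fits with fewer samples have fewer degrees of freedom, and no other cause was tested.

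Fold changes near 0 changed sign. For Gsdme it was -0.000562 with DESeq2, -0.0680 without con1 and con5, and -0.13 to 0.0779 when 1 sample was left out. For Casp1 it was -0.13 without shiyan2 and shiyan4, -0.0226 without con1 and con5, and -0.056 to 0.16 with 1 sample left out. For Aim2 it was -0.0283 without con1 and con5. For Gsdma2 it was -0.64 to 0.11 with 1 sample left out. The cause was not tested.

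The sample numbers 1, 2 and 5 occur in both groups, but deviations of same-numbered samples correlated at -0.101, -0.0623 and 0.323, so the numbers were not taken as pairs. With the replicate block, 2 members were called lower, Casp4 and Nlrp3 (log2 fold change -1.45, edgeR adjusted p = 0.0336). Of all 15147 genes, 184 were called lower with the block and 189 in the main fit. Gsdma had an adjusted p of 0.0354, Gsdma3 0.139 and Pycard 0.193 in the fit with the block. There con3 and shiyan4 were alone in their blocks, so the group difference rested on the samples numbered 1, 2 and 5. The lowest count of any member in a sample was 28, for Gsdma2, where counting error is largest.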
